A study of Homo sapiens with 2 samples.

Results

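Cytokine receptors of the hematopoietic type carry no kinase of their own and signal through Janus kinases (JAKs) bound to their tails. The JAKs phosphorylate STAT factors, which enter the nucleus and switch on target genes, among them the SOCS genes, whose products shut the receptor down again. In the fetal liver, oncostatin M from blood cells drives hepatoblasts towards hepatocytes through receptors that contain the shared chain gp130, the product of IL6ST, and in the adult liver interleukin 6 uses the same chain to start the acute phase response. The genes described here are 42 listed cytokine ligands, receptors, JAKs, STATs and inhibitors of this pathway, chosen by name. Of these, 41 were matched to an identifier in the table of 57158 identifiers, and SOCS7 was not matched and is not analysed here.

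The cells were liver progenitors made from CyT49, a human embryonic stem cell line, and were profiled by strand-specific poly(A) RNA sequencing. Definitive endoderm, reached at day 2, was grown as a suspension culture over 6 days in 50 ng/ml BMP4, 10 ng/ml FGF2 and 0.2% FBS, and the cells of day 8 gave 2 libraries of 1 group. No cytokine of the gp130 family is among the additions that the labels name. The series holds no reference group, so levels are described and no change was measured.

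Values are RPKM, that is read numbers scaled to gene length and sequencing depth, and every value under 0.5 RPKM stands as 0.1 in the table, called the floor here. Detection means that each library gave at least 1 RPKM, a level that stands for 50.4 reads in library 1 and 50.5 in library 2 on a gene of 2000 bp. Over 1007 single-exon genes the variance between the libraries was 1.04 times that of counting alone, so they were counted as 1 sample and both values are given without an SD. In this bulk RNA, fewer cells of a type and less RNA per cell cannot be told apart. All 11 liver progenitor markers were detected, led by APOA1 and by TTR, the thyroid hormone carrier. Of 10 blood cell markers only the lysosomal protein CD68 was detected (3.66 RPKM in library 1, 3.17 in library 2). PTPRC, CD14 and SPI1 were among the 9 at the floor. Of 7 endothelial markers measured, 1 was detected, KDR, and of 10 mesenchymal and stellate markers 5 were. These were VIM, COL1A1 at 8.29 and 8.30 RPKM, COL1A2 at 5.18 and 5.09, LUM at 3.39 and 3.16 and PDGFRB at 2.06 and 2.22, while COL3A1, DCN, THY1 and LHX2 were at the floor. The part of such cells in the levels below was not tested.

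Most of the members were expressed, at moderate levels. Of the 41 members, 30 (73.2%) were detected, beside 59.8% of 19344 protein-coding genes. A further 6 members lay between 0.5 and 1 RPKM, and in both libraries 5 members lay at the floor, namely OSM, IL6, OSMR, PRLR and IL1R1. The median member stood at 3.75 RPKM, beside 2.42 RPKM for all protein-coding genes. The difference from other genes lay in the lower range of levels. At 0.5 RPKM or more stood 36 of 41 members, beside 65.1% of protein-coding genes. At 5 RPKM or more stood 16 of 41 members, beside 35.4% of protein-coding genes, and at 10 RPKM or more 6 members, beside 20.2%. The genes were chosen with results of these data known, so these shares are given with no test.

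**Figure D1:**
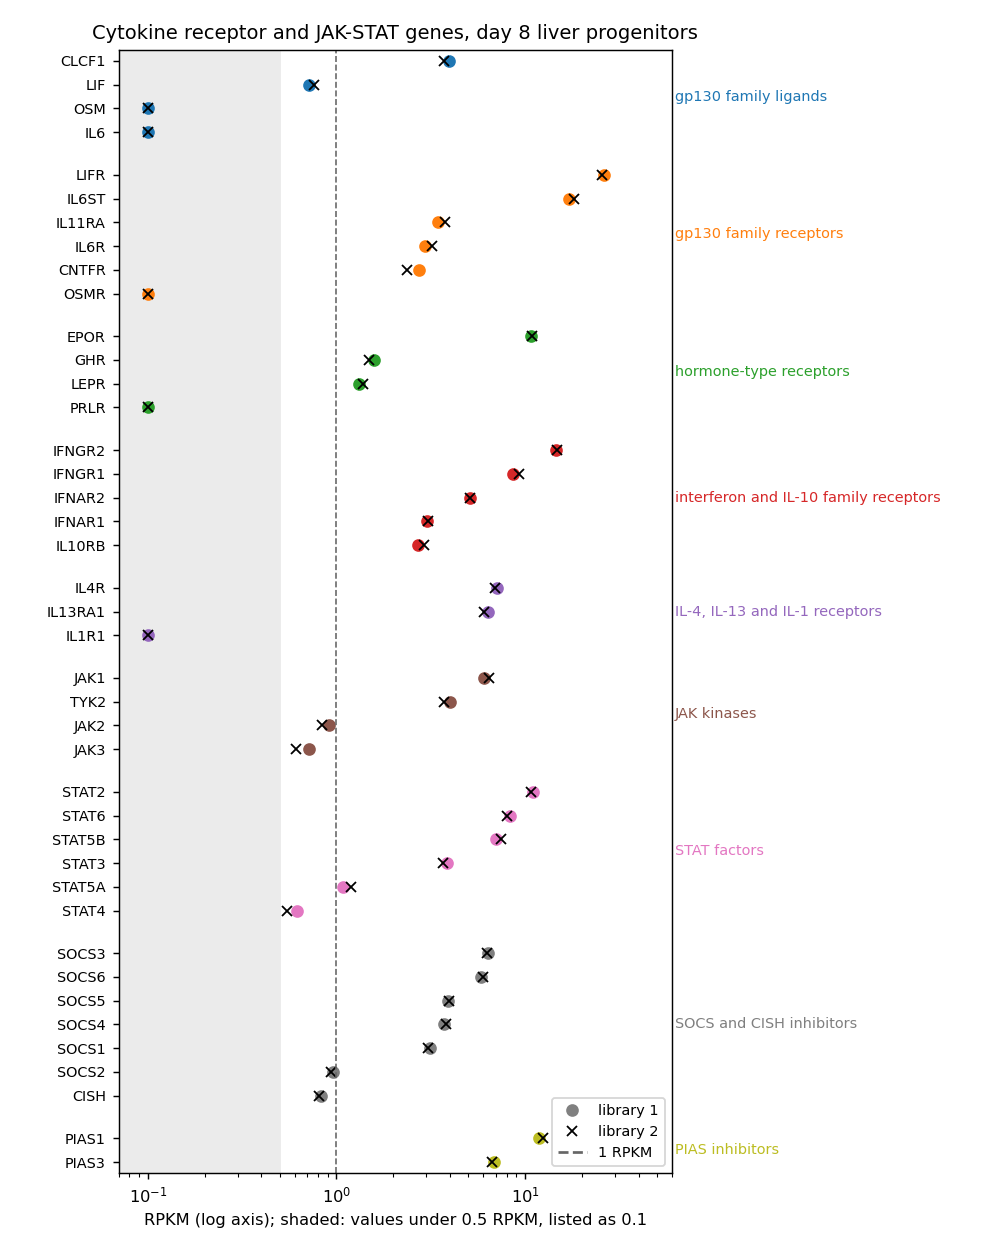
RPKM of each measured member on a log axis in library 1 (circles) and library 2 (crosses), grouped by role, with values under 0.5 RPKM shaded and 1 RPKM dashed. LIFR and IL6ST stand furthest to the right, and OSM, IL6, OSMR, PRLR and IL1R1 lie at the floor.

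**Figure D2:**
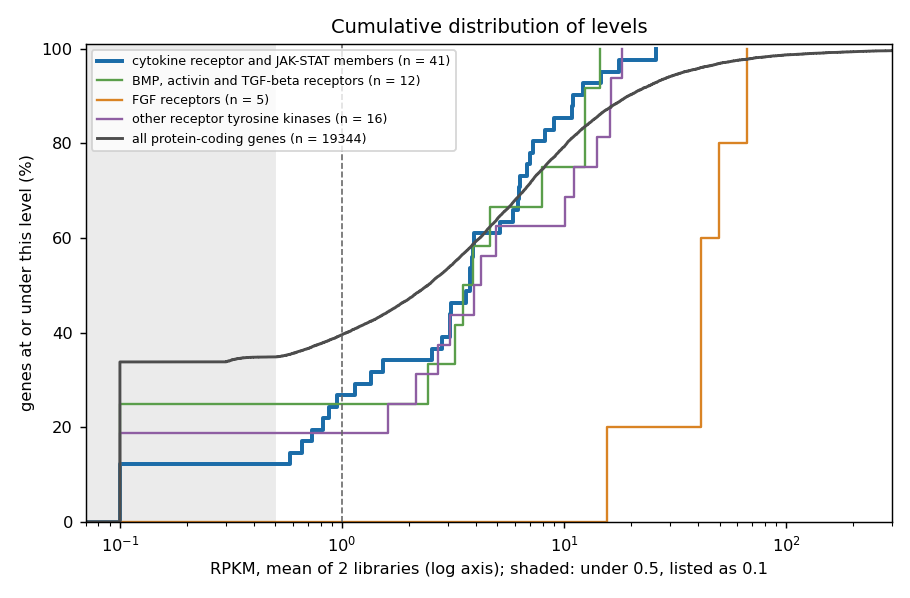
Share of genes at or under each level (mean of 2 libraries, log axis) for the 41 members, 3 other receptor lists and all protein-coding genes. At the floor lie 5 of 41 members, beside 33.8% of protein-coding genes, the members end at 25.9 RPKM with LIFR, and the lowest FGF receptor stands at 15.6 RPKM.

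The ligands of the gp130 family were low, with CLCF1 as the exception. CLCF1, a ligand of the CNTF receptor, had 3.96 RPKM in library 1 and 3.70 in library 2. It shares 61 of its 1836 exon bases on the same strand with ENSG00000256514, which had 9.24 and 9.08 RPKM. The level of CLCF1 thus depends in part on how reads were divided. LIF, which holds mouse embryonic stem cells in the pluripotent state, had 0.713 and 0.758 RPKM. OSM (oncostatin M) and IL6 (interleukin 6) each lay at the floor in both libraries. Thus 1 of the 4 ligands was detected, and each maturation cytokine stood under 0.5 RPKM, a limit below which reads may still have been present. Of 8 further genes of the family, 3 were detected, among them IL27RA, a receptor chain that pairs with gp130, at 5.86 and 5.96 RPKM, and CTF1 (cardiotrophin 1, a ligand of LIFR and gp130) at 1.53 and 1.69. IL11 had 0.915 and 0.969 RPKM and EBI3, a subunit of interleukin 27, 0.620 and 0.525, while CNTF, IL27 and IL31RA were at the floor.

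The gp130 family receptors included the highest members of all. LIFR, the signalling chain for LIF, had 26.1 RPKM in library 1 and 25.7 in library 2, above 92.9% of protein-coding genes. IL6ST, which encodes gp130, had 17.2 and 18.2 RPKM. The level of LIFR per length was 1.52 times that of IL6ST in library 1 and 1.41 times in library 2, and their library values did not overlap. LIFR lies on chromosome 5 from 38474770 to 38608456 on the minus strand and IL6ST on the same chromosome from 55230923 to 55290850 (GRCh37, the build also called hg19). A pseudogene of IL6ST, IL6STP1, had 2.18 and 2.06 RPKM, and reads shared between the copies cannot be told apart here. The other 9 pseudogenes named for a member were at the floor.

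OSMR, the chain specific to oncostatin M, was at the floor in both libraries, although its gene starts 237.5 kb from LIFR with no other measured protein-coding gene between them. Against the 0.5 RPKM limit LIFR was at least 52.2-fold higher than OSMR in library 1 and at least 51.3-fold higher in library 2. OSMR spans positions 38845960 to 38945698 of chromosome 5 on the plus strand. The remaining receptors of the family, each of which binds its own ligand and hands the signal to gp130, were detected at a few RPKM. IL11RA (interleukin 11) had 3.45 and 3.77 RPKM, IL6R (interleukin 6) 2.93 and 3.20, and CNTFR (CNTF and CLCF1) 2.73 and 2.37. IL6ST was 5.86 and 5.67 times as high as IL6R in libraries 1 and 2, and 6.30 and 7.67 times as high as CNTFR. Of the 5257 exon bases of IL11RA, 1706 are shared on the same strand with a gene of wider span, ENSG00000258728.1, which had 21.2 and 19.7 RPKM, so the level of IL11RA depends on how reads were divided between them. ADAM10 and ADAM17, the membrane proteases that shed IL6R and other receptors, had 15.3 and 7.37 RPKM in library 1 and 15.0 and 7.48 in library 2.

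Set together as receptor complexes, these levels divide the oncostatin M receptors. The type I complex, LIFR with gp130, which LIF also uses, had its lowest chain at 17.2 and 18.2 RPKM. The type II complex, OSMR with gp130, lacked a detected OSMR. The complexes for interleukin 6, interleukin 11 and CNTF each had every chain detected, with the ligand-binding chain as the lowest. Over all 18 complexes examined, every chain was detected in 12. In the other 6 the missing chains were OSMR, PRLR (prolactin), IL10RA (interleukin 10), IL22RA1 (interleukin 22), IL2RG (the common gamma chain of the type I interleukin 4 receptor) and IL1R1 (interleukin 1). The count takes the LIF and type I oncostatin M complexes separately, though their chains are the same. Several complexes share IL6ST or IL10RB, so they are not independent, and some are listed with a single chain, such as EPOR. Human oncostatin M can use either type, and which proteins reached the cell surface was not measured.

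**Figure D3:**
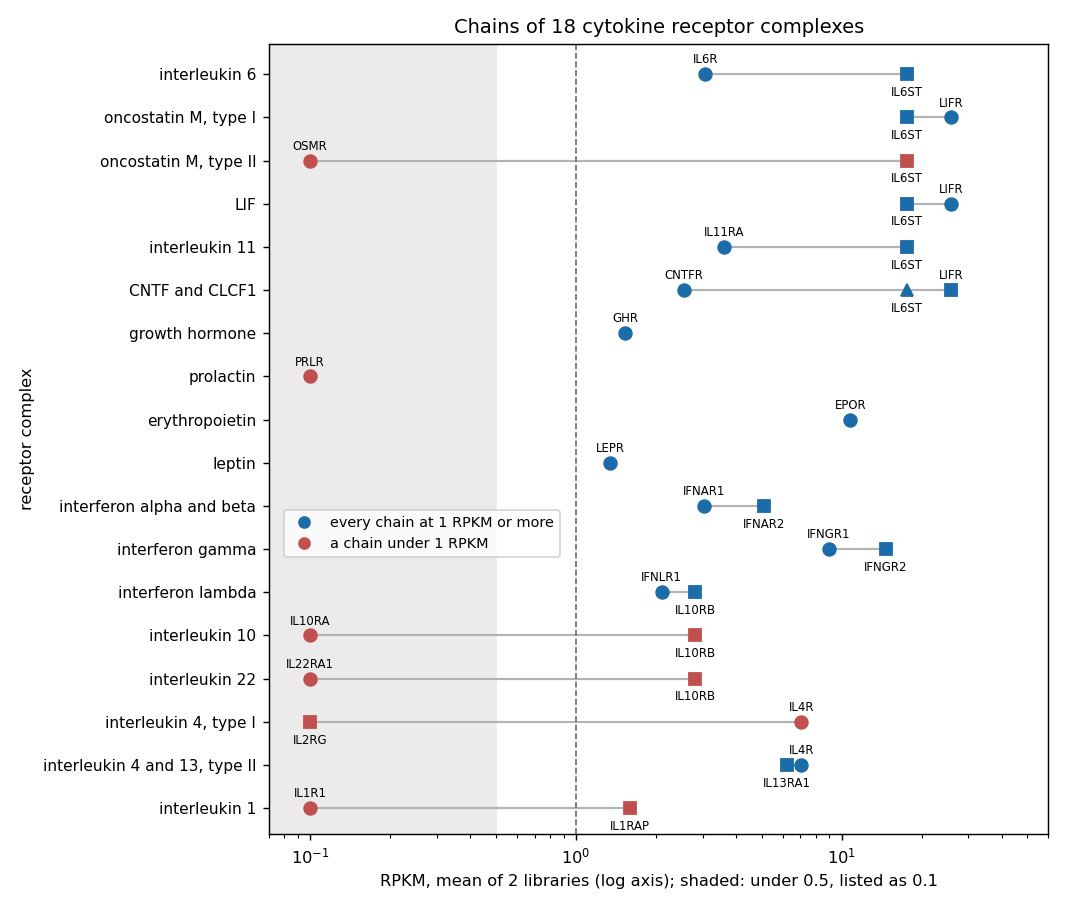
RPKM (mean of 2 libraries, log axis) of each chain of 18 receptor complexes, joined by a line, in blue where every chain reached 1 RPKM in both libraries and in red where a chain did not. The lowest chain of the LIF and type I oncostatin M complexes is IL6ST at 17.7 RPKM, and 6 complexes have a chain at the floor.

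Among the hormone-type receptors EPOR stood apart. EPOR, the erythropoietin receptor of red cell precursors, had 10.7 RPKM in library 1 and 10.9 in library 2. GHR, the growth hormone receptor that sustains IGF1 production in adult liver, had 1.57 and 1.497 RPKM, so that EPOR was 6.81 and 7.27 times as high. LEPR (leptin) had 1.32 and 1.38 RPKM and shares 165 exon bases with LEPROT, which had 13.8 and 13.4 RPKM. PRLR, the prolactin receptor, was at the floor. The red cell factor KLF1 was at the floor too, beside the level of EPOR. Of 22 ligands outside the gp130 family, 2 were detected and both are hormones that the liver is known to make: EPO (erythropoietin) at 2.55 and 3.04 RPKM and THPO (thrombopoietin) at 1.07 and 1.299.

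Each of the 5 receptor genes of the interferon and interleukin 10 family was detected. IFNGR2 and IFNGR1, the chains of the interferon gamma receptor, had 14.7 and 8.64 RPKM in library 1 and 14.7 and 9.29 in library 2. IFNAR2, the high-affinity chain for interferon alpha and beta, had 5.13 and 5.12 RPKM and IFNAR1, its partner, 3.02 and 3.07. IL10RB, the chain shared by several receptors of the family, had 2.71 and 2.92 RPKM. On chromosome 21 IFNAR2, IL10RB, IFNAR1 and IFNGR2 follow each other on the plus strand, with gaps of 0.691, 12.97 and 43.5 kb, and IFNGR2 was the highest of the 4. IFNGR2 shares 380 of its 2539 exon bases with TMEM50B on the opposite strand, which had 5.56 and 5.79 RPKM. These bases bear on its level if strand was not used in counting. A readthrough gene, IFNAR2-IL10RB, had 3.41 and 3.28 RPKM and shares exon bases with IFNAR2 and IL10RB, so the division of reads among the 3 genes bears on their levels. Of the 6 other class II receptor genes only IFNLR1, the specific chain for interferon lambda, was detected, at 2.18 and 2.03 RPKM, and IL10RA, IL20RA and IL22RA1 were among the 5 at the floor.

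IL4R and IL13RA1, which form the type II receptor for interleukins 4 and 13, had 7.14 and 6.38 RPKM in library 1 and 6.95 and 6.03 in library 2. IL1R1, the signalling receptor for interleukin 1, was at the floor. Of 8 listed partners and regulators of interleukin 1 signalling, 6 were detected, beside 59.8% of protein-coding genes. The kinase IRAK1 was highest at 18.4 and 19.1 RPKM, followed by the adaptor MYD88 at 9.85 and 9.88, while IL1R2 and IL1RN were at the floor. IL1RAP, the second chain of the interleukin 1 receptor, had 1.75 and 1.45 RPKM. The 18 other class I receptor genes listed, most of them known from lymphoid and myeloid cells, were all at the floor in both libraries, among them CSF3R, IL2RB and IL7R.

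Among the 4 JAKs, JAK1 and TYK2 were detected. JAK1, the main kinase bound to gp130, had 6.05 RPKM in library 1 and 6.41 in library 2, and TYK2, its partner at the interferon alpha receptor, had 4.01 and 3.73. JAK2, the kinase used by EPOR, GHR and IFNGR2, had 0.909 and 0.840 RPKM, under the detection limit in both libraries. JAK1 was therefore 6.65 and 7.63 times as high as JAK2. JAK3, the partner of IL2RG in lymphocytes, had 0.718 and 0.607 RPKM, the largest library difference among the members on the log2 scale.

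Of the 6 STATs listed, 5 were detected, and STAT3 was not among the highest. STAT2, the interferon factor that works with IRF9, had 11.1 and 10.7 RPKM. STAT6, which serves the interleukin 4 receptor, had 8.37 and 8.06 RPKM, and STAT5B, the main growth hormone factor of liver, 6.98 and 7.49. STAT3, the principal factor downstream of gp130, had 3.84 RPKM in library 1 and 3.65 in library 2. STAT2 was 2.88 and 2.94 times as high as STAT3, and STAT6 was 2.18 and 2.21 times as high. STAT5A had 1.08 and 1.199 RPKM, and STAT5B was 6.47 and 6.25 times as high. STAT5B, STAT5A and STAT3 are neighbours on chromosome 17, where STAT5B and STAT5A overlap and STAT3 begins 1.38 kb beyond STAT5A. STAT5A and STAT5B share 415 exon bases on opposite strands, which bear on their levels if strand was not used in counting. STAT4, known from T and NK cells, had 0.615 and 0.545 RPKM.

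The inhibitors split into a detected group and a low pair. SOCS3, the inhibitor that binds gp130, had 6.38 RPKM in library 1 and 6.27 in library 2, the highest of the 7 genes of the SOCS family measured. SOCS6 had 5.82 and 5.97 RPKM, SOCS5 3.92 and 3.95, SOCS4 3.70 and 3.79, and SOCS1, which inhibits the JAKs directly, 3.15 and 3.06. SOCS2 and CISH, the feedback inhibitors of growth hormone and STAT5 signalling, had 0.961 and 0.830 RPKM in library 1 and 0.933 and 0.805 in library 2. SOCS3 was 7.68 and 7.78 times as high as CISH. PIAS1 and PIAS3, SUMO ligases named as inhibitors of activated STATs, had 11.8 and 6.82 RPKM in library 1 and 12.4 and 6.72 in library 2. Opposite-strand genes share exon bases with both PIAS genes and with CISH.

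Among the 35 members with a promoter in the RefSeq table, CISH carries the most STAT-type sites. Its sequence is shown beside that of SOCS1, a member of the same family with none. SOCS3, SOCS4 and SOCS6 have none either. The windows are the 250 bases before the RefSeq start of each gene, found by exact match on GRCh37, and both genes lie on the minus strand. Capitals mark TTCNNNGAA, the palindromic site that STAT dimers bind, which reads the same on both strands. CISH covers chr3:50649206-50649455 and SOCS1 chr16:11350062-11350311.
CISH: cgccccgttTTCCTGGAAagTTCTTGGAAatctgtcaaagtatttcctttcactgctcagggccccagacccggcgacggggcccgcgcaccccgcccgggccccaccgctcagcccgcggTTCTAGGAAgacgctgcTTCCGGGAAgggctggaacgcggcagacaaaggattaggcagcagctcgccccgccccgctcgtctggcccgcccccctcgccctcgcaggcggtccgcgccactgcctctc
SOCS1: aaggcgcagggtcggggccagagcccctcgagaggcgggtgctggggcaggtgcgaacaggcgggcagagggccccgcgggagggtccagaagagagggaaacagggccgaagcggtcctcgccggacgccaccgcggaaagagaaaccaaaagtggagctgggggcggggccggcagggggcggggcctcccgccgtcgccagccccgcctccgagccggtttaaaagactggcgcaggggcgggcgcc
The CISH window holds 4 matches, TTCCTGGAA, TTCTTGGAA, TTCTAGGAA and TTCCGGGAA, which begin 241, 230, 129 and 112 bases before the start and do not overlap. Only 5 of 35116 promoter windows (0.0142%) hold 4 or more, and 6.57% hold at least 1. Of the 61 windows of members, 5 (8.2%) hold a match. Of the 35 members with a promoter in the RefSeq table, 4 had a match in at least 1 of their windows: CISH, GHR, IL1R1 and LIFR. These 4 stood at 0.817, 1.54, 0.1 and 25.9 RPKM (mean of 2 libraries), so members with a match lie at the floor, low and at the top of the order. A match is a string of letters and not evidence of binding.

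The levels of the 36 members above the floor formed a graded order in which close neighbours often could not be separated. Of 35 pairs of neighbours in that order, the values of the 2 libraries overlapped in 14 and did not in 21. STAT2 and EPOR overlapped, as did CLCF1, SOCS4 and STAT3. LIFR, IL6ST, IFNGR2 and PIAS1, the 4 highest, each lay clear of the next. The median difference between libraries was 0.07 on the log2 scale for members, beside 0.06 for 11108 protein-coding genes in the same range of levels, and 0.24 at most, for JAK3. Levels of different genes also depend on the gene length that the authors divided by and on how reads in shared exon bases were counted. The library difference covers neither.

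Beyond the members, adaptors and phosphatases of the pathway were nearly all detected, 11 of 12. The adaptor GRB2 had 19.8 and 20.1 RPKM, PTPN11 (SHP2, which binds the gp130 tail) 13.3 in both libraries and PTPN1 12.5 and 11.96. USP18, a brake on interferon signalling that interferon itself induces, had 0.872 and 1.00 RPKM and was not detected by the rule. Over all 76 further pathway genes listed, 25 (32.9%) were detected, beside 59.8% of protein-coding genes, with the ligands and receptors given above as most of those at the floor.

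Genes that the pathway is known to control were uneven. Of 57 in all, 29 (50.9%) were detected, beside 59.8% of protein-coding genes, and of the 5 lists only the immediate STAT3 targets lay above that share. All 9 immediate targets of STAT3 were detected, led by MCL1, a survival protein, at 33.0 and 33.1 RPKM and the repressor BCL6 at 22.5 and 23.4, with CEBPD lowest at 1.13 and 1.33. FOS, at 4.56 and 4.07 RPKM, and several others of these also respond to growth factors. Of 16 acute phase targets of interleukin 6, 7 were detected. FGB, FGA and FGG, the fibrinogen chains, SERPINA1 and the heme carrier HPX (38.0 and 36.6 RPKM) were high. A2M had 9.99 and 10.6 RPKM and SERPINA3 3.49 and 3.33. CRP, SAA1, SAA2, HAMP, HP, LBP, ORM1 and CP were at the floor, and ORM2 had 0.639 and 0.737 RPKM. ORM1 and ORM2, and SAA1 and SAA2, are near-identical pairs whose reads cannot be told apart with confidence.

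Of 7 growth hormone and STAT5 targets, 3 were detected: IGFBP3 (34.0 and 32.7 RPKM), BCL2L1 (19.96 and 20.96) and PIM1 (7.64 and 7.97). IGF1 and IGFALS, which the liver makes under growth hormone, were at the floor, and SOCS2 and CISH were low as given above. Of 16 interferon-stimulated genes, 7 were detected, with the membrane protein IFITM3 highest at 48.6 and 47.7 RPKM, followed by the ubiquitin-like ISG15 at 29.7 and 30.1. IFIT1, IFIT2, IFIT3, MX1, OAS1, IFI44 and IRF1 were at the floor, and IRF9, the partner of STAT2, had 1.93 and 1.91 RPKM. The IFITM genes are close relatives that can share reads. Of 10 genes that mature with oncostatin M in culture, 4 were detected. TTR, also 1 of the liver progenitor markers, had 779 and 774 RPKM. ALB had 6.84 and 6.53 RPKM, CPS1 4.13 and 3.99 and TDO2 3.14 and 2.99. At the floor were 5 of the 10, among them TAT.

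**Figure D4:**
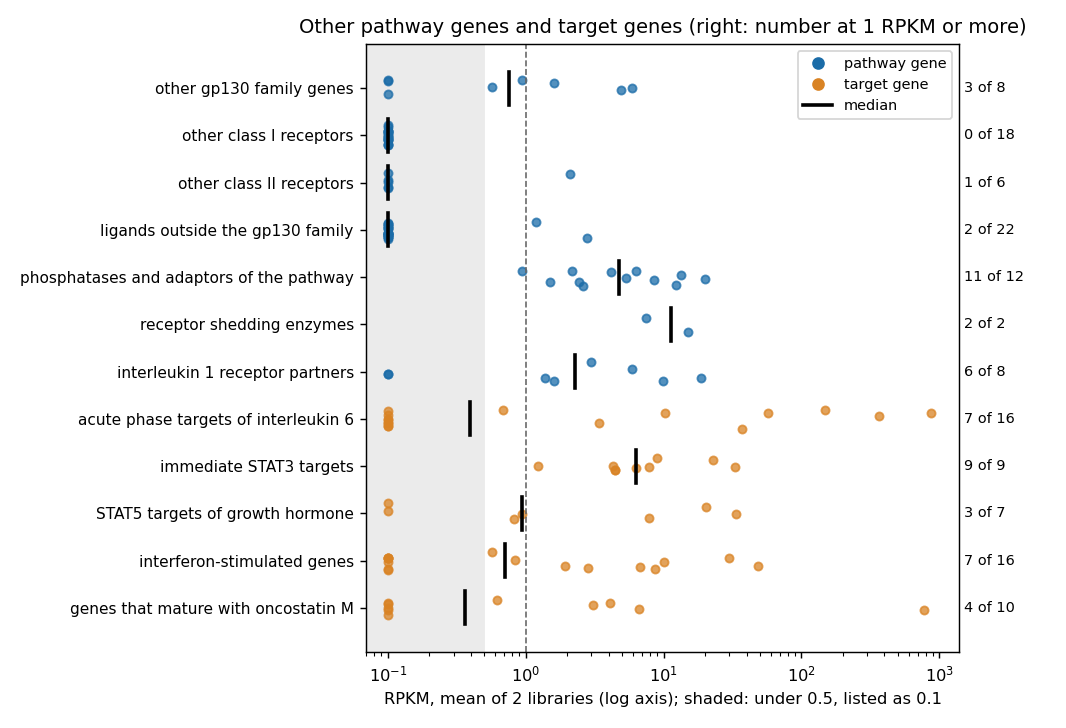
RPKM (mean of 2 libraries, log axis) of every gene in the further pathway lists (blue) and target lists (orange), with the median as a black bar and the number detected at the right. All 18 other class I receptors lie at the floor, and all 9 immediate STAT3 targets lie above 1 RPKM.

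Receptors of other signalling families give a scale for these levels. Of the member receptors, chosen with earlier results known, 15 of 18 were detected, with a median of 3.34 RPKM. Cytokine receptors outside the members were lower. Of the 18 other class I receptors 0 were detected and of the 6 other class II receptors 1, with both medians at the floor. The share over all protein-coding genes was 59.8%. Of the BMP, activin and TGF-beta receptors 9 of 12 were, with a median of 3.69 RPKM, and of 16 other receptor tyrosine kinases 13 were, with a median of 4.07. All 5 FGF receptors were detected, with a median of 41.4 RPKM and FGFR3 highest at 66.3 and 66.6. LIFR was higher than every BMP, activin or TGF-beta receptor listed, the highest of which was ACVR1B at 14.2 and 14.7 RPKM. These lists are short and chosen by name, and no test was made between them.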

How the data were processed

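The deposited table gives RPKM for 57158 versioned Ensembl gene identifiers in 2 libraries, which the authors scaled to gene length and read number. The series description names hg19 and Sailfish. The submitters' processing notes list FastQC 0.10.1, STAR 2.3.0e and Cufflinks 2.2.0 with no role. Which of them made the RPKM values, the annotation release and the use of strand in counting are not stated by the labels. No value lay between 0.1 and 0.5, so 0.1 is read as under 0.5 RPKM.

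Identifiers were joined without version to GENCODE release 44 on GRCh37 (95.2% matched), and each protein-coding symbol took its identifier of highest mean. G6PC was matched as G6PC1 through RefSeq, and SOCS7 and PECAM1 were not matched. For single-exon genes the values were whole multiples of 1 read over length (end minus start), which gave 25182346 and 25264292 reads in the normalization. Of those under 500 reads, 80.7% and 80.8% were whole within 0.02 of a read. The variance ratio used genes whole within 0.1 of a read in both libraries, from 50 to under 2000 reads, and the step was tested on simulated data. Reads of PCR products are not independent molecules, so this covers counting error only.

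All matched members are named. Of each other list described, up to 4 of the highest and 3 of the lowest genes, and every chain of a receptor complex, could be named, and other names were picked with their values known. Members, lists and complexes were chosen with earlier results of these data known. Some listed genes are not reported here by name, while the counts of their lists include them. With 1 group, no test between groups was possible. Alternatives were detection limits of 0.5 and 5 RPKM, pseudocounts of 0.1 and 0.01 in place of 1 in log2(RPKM + 1), a filter on low values, identifiers summed by symbol, each library alone, and, chosen after seeing the data, other read minimums and leaving out members with shared exon bases. Python 3.11.15, pandas 2.3.3 and numpy 2.4.6 were used.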

Additional observations from a re-analysis of the deposited data

How the results depend on the processing

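With a limit of 5 RPKM in place of 1, 16 members were detected (30 at 1 RPKM), 5 receptor complexes were complete (12 at 1 RPKM) and 32 genes of the further pathway and target lists, which include the members SOCS2, SOCS3 and CISH, were detected (54 at 1 RPKM). At 0.5 RPKM the same counts were 36, 12 and 63. The median member, 2.25 on the log2(RPKM + 1) scale beside 1.77 for protein-coding genes, was 1.94 with a pseudocount of 0.1, 1.91 with 0.01 and 2.70 over detected members alone. With 1 library alone it was 2.23 to 2.23, and the detected members stayed at 30. The background share of 59.8% is 26.3% over all identifiers. Without the 5 members that share 10 or more exon bases with another expressed gene on the same strand, 25 of 36 were detected, and without the 13 that do so on either strand 19 of 28 were. Both alternatives were chosen after seeing the data. The variance ratio of 1.04 was 1.00 with a minimum of 20 reads and 1.08 with 100. Of 24 lists, the number detected moved by over 1.5 times in 16 at 5 RPKM, in 4 at 0.5 RPKM and in 0 with a library left out. No paired analysis was possible because the series has 1 group. At this depth 0.5 RPKM on a gene of 2000 bp stands for 25.2 reads in library 1, so a gene at the floor may still be transcribed.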

Other observations

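A processed pseudogene of 78 exon bases that lies within IL6ST on the opposite strand, ENSG00000264281.2, had 1723 RPKM in library 1 and 1760 in library 2. It shares 0 exon bases with IL6ST, and it was chosen after its values were seen. Among members within 1 Mb of each other, STAT2 and STAT6 are 735.2 kb apart on chromosome 12, with 19 protein-coding genes between them, at 10.9 and 8.21 RPKM (means of 2 libraries), CNTFR and IL11RA are 62.02 kb apart on chromosome 9, with 5 such genes between them, at 2.55 and 3.61 RPKM, and LIF and OSM are 16.1 kb apart on chromosome 22, with 0 between them, at 0.735 RPKM and the floor.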
